A study of Mus musculus with 4 samples.

Results

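Gzmc, Gzmd, Gzme, Gzmf and Gzmg, neighbouring granzyme genes on mouse chromosome 14, were examined with Ctla2a and Ctla2b, a gene pair on chromosome 13, across single mouse embryonic stem cells (mESC). The 7 genes were found by their symbols in the deposited gene list, which holds 32285 genes. They were selected on their UMI counts in these libraries, their spread over single cells and their overlap with keratin and contractile genes, so their levels are given as a description and without a test. The study collected droplet single-cell transcriptomes from E14tg2a.4, a male mESC line that served as WT, and from Srrm2 hKO, a heterozygous knockout line of that strain. The hKO line carries a gene-trap cassette in 1 copy of Srrm2, which encodes a scaffold protein of the spliceosome, and it is a single gene-trap line (CG0630), so effects of the line and of the allele cannot be told apart. Both lines were grown without feeder cells on gelatin in serum-free ESGRO medium with the self-renewal cytokine LIF, for 24 h or 72 h according to the labels, while the study's methods give the single-cell cultures 1 other length of growth. There were 2 WT and 2 Srrm2 hKO samples, and the 4 libraries were deposited as 1 joint matrix with a library number from 1 to 4 after each cell barcode. Nothing in the sources used here ties a number to a line, so values are given by library number, hKO was not compared with WT, and a difference between libraries has no replicate error.

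Granzymes are serine proteases best known from the granules of cytotoxic T cells and natural killer cells. They are made as inactive precursors, activated by cathepsin C (Ctsc), stored on serglycin (Srgn), and delivered into target cells through pores of perforin (Prf1). Gzmc to Gzmg arose by gene duplication in rodents and are known from activated killer cells, including those of the pregnant uterus. Ctla2a and Ctla2b were first described in activated T cells and encode small proteins that resemble the inhibitory propeptide of cathepsin L, and CTLA-2α inhibits cathepsin L-like cysteine proteases. Neither group is among the genes used to define mESC.

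The 5 granzymes lie within 117031 bases of the minus strand of chromosome 14 in the GENCODE annotation of mm10 (GRCm38), in the order Gzme (chr14:56117626-56120625), Gzmd (chr14:56129556-56132608), Gzmg (chr14:56156582-56159579), Gzmf (chr14:56205263-56211417) and Gzmc (chr14:56231441-56234656). Gzmn lies between Gzmg and Gzmf, and Gzmb follows Gzmc. Ctla2b (chr13:60895350-60897447) and Ctla2a (chr13:60934155-60936625) are 36707 bases apart on the minus strand of chromosome 13. The files list the 7 genes as ENSMUSG00000079186 (Gzmc), ENSMUSG00000059256 (Gzmd), ENSMUSG00000022156 (Gzme), ENSMUSG00000015441 (Gzmf), ENSMUSG00000040284 (Gzmg), ENSMUSG00000044258 (Ctla2a) and ENSMUSG00000074874 (Ctla2b).

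The sequences just before the transcription starts are shown because they make visible how alike these gene copies are. All 7 genes were found in the RefSeq promoter table (GRCm38.p6). Over the 250 bases before the start, the 10 pairs of granzymes were 86.0% to 95.6% identical where they aligned, with Gzmd and Gzme the closest pair. The longest run shared by all 5 is 20 bases long and occurs upstream of no other gene in the table. It is in capitals in the stretches below, which are read 5′ to 3′ on the minus strand from chr14:56234658-56234792 (Gzmc), chr14:56132594-56132732 (Gzmd), chr14:56120626-56120765 (Gzme), chr14:56211428-56211567 (Gzmf) and chr14:56159595-56159734 (Gzmg).
Gzmc: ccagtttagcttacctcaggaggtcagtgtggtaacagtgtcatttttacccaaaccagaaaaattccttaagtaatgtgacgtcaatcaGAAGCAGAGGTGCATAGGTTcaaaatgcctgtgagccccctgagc
Gzmd: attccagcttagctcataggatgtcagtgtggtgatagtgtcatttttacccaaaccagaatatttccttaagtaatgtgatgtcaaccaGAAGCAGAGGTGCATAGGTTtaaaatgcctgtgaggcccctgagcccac
Gzme: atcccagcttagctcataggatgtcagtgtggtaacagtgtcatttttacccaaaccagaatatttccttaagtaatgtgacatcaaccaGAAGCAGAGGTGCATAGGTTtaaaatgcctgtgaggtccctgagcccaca
Gzmf: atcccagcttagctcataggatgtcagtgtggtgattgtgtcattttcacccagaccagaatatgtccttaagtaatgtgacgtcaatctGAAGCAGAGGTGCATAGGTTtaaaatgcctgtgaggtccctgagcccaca
Gzmg: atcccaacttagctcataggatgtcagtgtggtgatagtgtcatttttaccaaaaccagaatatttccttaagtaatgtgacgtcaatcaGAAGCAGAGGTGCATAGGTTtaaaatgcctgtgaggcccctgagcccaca

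Ctla2a and Ctla2b were 91.7% identical over 228 aligned bases of the same window. Their longest shared run is 36 bases, in capitals in the stretches from chr13:60936626-60936777 (Ctla2a, the more upstream of its 2 listed starts) and chr13:60897466-60897621 (Ctla2b), again on the minus strand.
Ctla2a: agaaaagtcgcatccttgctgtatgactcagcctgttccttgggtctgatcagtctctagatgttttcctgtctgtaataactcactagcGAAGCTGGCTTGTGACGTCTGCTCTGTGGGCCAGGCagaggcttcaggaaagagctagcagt
Ctla2b: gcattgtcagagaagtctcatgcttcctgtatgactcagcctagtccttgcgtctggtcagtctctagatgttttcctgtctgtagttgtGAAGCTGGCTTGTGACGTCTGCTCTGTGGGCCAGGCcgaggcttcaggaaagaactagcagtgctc

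Motifs were sought on both strands of the 300-base RefSeq windows, which run from 250 bases before to 50 bases after the start. The AP-1 motif TGANTCA was found in Ctla2a (position -129 from the start) and Ctla2b (position -143), and in 7.81% of all 32851 windows. Ctla2a also held TATAAA and, on the other strand and sharing 1 base with it, AGATAA, which are present in 13.6% and 11.2% of windows. None of these 3 was in the window of a granzyme, and GGAATG (a TEAD motif, 14.7% of windows) and the CArG box (1.63%) were in none of the 7. These are matches of letters only.

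The likeness of the granzymes continues at the 3′ ends, where the assay reads. Over the last 500 bases of the longest transcript, Gzmd and Gzme were 96.5% identical and the other granzyme pairs 73.2% to 91.3%. Ctla2a and Ctla2b aligned over only 53 bases of that stretch, 40 of them identical. Only the longest transcript of each gene was compared, so likeness at the ends of other transcripts was not tested. Of 410 windows of 91 bases in that stretch, 6 of Gzmd and 6 of Gzme occur unchanged in another gene of the family, and 0 windows of the other 5 genes do. Cell Ranger drops reads that fit several genes equally well, so the division of counts between Gzmd and Gzme is the least certain, and most results below use the 5 granzymes summed.

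The matrix gave 31989 cells that passed the study's stated cell filter, 7464 to 8514 per library, with a median of 18378 to 21898 unique molecular identifiers (UMIs, each 1 captured transcript) per cell. Levels are UMIs per 1000000 UMIs of the kept cells (CPM) with exact 95% Poisson intervals, and shares of cells have exact Clopper-Pearson intervals. Both cover counting error only, and a few rich cells hold many of the counts, so cell-to-cell spread is wider than the intervals of the levels. A count of 0 allows up to 3 counts, or 0.0150 to 0.0180 CPM in a library. Library 3 stood apart in the genes the members were set against: Krt8 and Krt18, the simple epithelial keratins, summed to 471 CPM there and to 27.5 to 139 CPM elsewhere, and a list of 6 contractile genes (Acta2, Tagln, Acta1, Actg2, Cnn1, Myl9) to 490 CPM against 31.3 to 189 CPM. Srrm2 itself had between 238 CPM (library 3) and 533 CPM (library 2), which was not used to name a library. Pairs of libraries shared 11 to 26 kept cell barcodes, and none of the 19 granzyme-carrying cells of libraries 1, 2 and 4 shared its barcode with such a cell of library 3.

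Granzyme transcripts were almost all from library 3 and almost all from Gzme and Gzmd. Gzme, the most abundant, gave 3, 25, 686 and 10 UMIs in libraries 1 to 4, or 0.0180, 0.125, 3.98 and 0.0575 CPM. Gzmd gave 7, 4, 191 and 5 UMIs, or 0.0420, 0.0200, 1.11 and 0.0287 CPM. In both genes library 3 was far above the other libraries, whose intervals overlapped for Gzmd but not for Gzme between libraries 1 and 2. A UMI stands for 1 captured 3′ end whatever the length of the transcript, so these levels of genes need no correction for length.

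The remaining granzymes were at the edge of detection. Gzmc had 0, 1, 1 and 3 UMIs in libraries 1 to 4 and Gzmf 1, 0, 2 and 0. Gzmg had 0 UMIs in every library. None of the 3 exceeded the limit that a count of 0 allows, so a difference between libraries was not detectable for them at this depth.

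Summed, the 5 granzymes measured 0.0659 CPM (0.0329 to 0.118) in library 1, 0.150 CPM (0.101 to 0.214) in library 2, 5.10 CPM (4.77 to 5.45) in library 3 and 0.103 CPM (0.0613 to 0.163) in library 4. Library 3 held 93.7% of all granzyme UMIs and was 77.4-fold (43.1 to 156) above library 1. The intervals of libraries 1, 2 and 4 overlapped one another.

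Ctla2a, the inhibitor gene, had 19, 29, 472 and 28 UMIs in libraries 1 to 4, or 0.114, 0.145, 2.74 and 0.161 CPM. Ctla2b had 2, 4, 65 and 12 UMIs, or 0.0120, 0.0200, 0.377 and 0.0689 CPM. Library 3 was again the highest for both genes, with 86.1% of the Ctla2a and 78.3% of the Ctla2b UMIs, and the intervals of Ctla2a in libraries 1, 2 and 4 overlapped. The fold between the highest and the lowest library was 24.0 (15.2 to 40.3) for Ctla2a and rested on 2 UMIs in the lower library for Ctla2b, 31.5 (8.36 to 265).

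**Figure D1:**
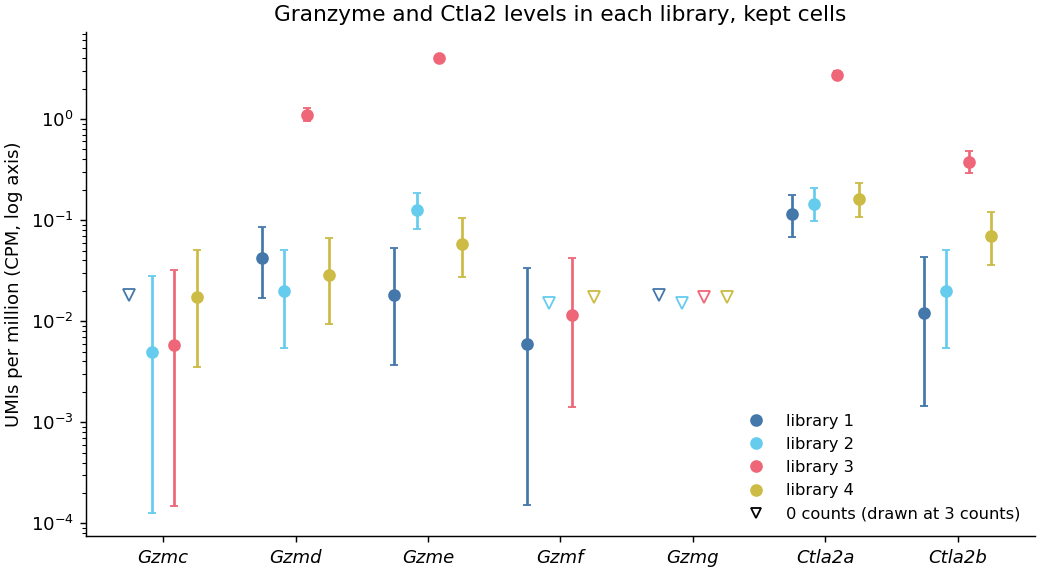
Level of each of the 7 genes in CPM (log axis) in the 4 libraries, as points with exact 95% Poisson intervals; open triangles mark 0 counts, drawn at the 3 counts that a 0 allows. Gzmd, Gzme, Ctla2a and Ctla2b are highest in library 3 (1.11, 3.98, 2.74 and 0.377 CPM), while Gzmc, Gzmf and Gzmg stay near the floor in all 4.

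These levels came from few cells that carried many transcripts each. In library 3, 154 of 7893 cells (1.95%, 1.66 to 2.28) had a granzyme UMI, and 64 of them had 1, 41 had 2 to 4, 29 had 5 to 9 and 20 had 10 or more. The richest cells held 69, 62 and 43 granzyme UMIs, and the top 10 cells held 42.2% of the total. In libraries 1, 2 and 4 only 3, 5 and 11 cells carried a granzyme UMI, yet library 2 included 2 cells with 13 UMIs each and library 1 a cell with 8.

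Ctla2a was divided in the same way. It was detected in 7, 6, 132 and 13 cells of libraries 1 to 4, and in library 3 in 65 cells with 1 UMI, 46 with 2 to 4, 13 with 5 to 9 and 8 with 10 or more. The richest library 3 cell held 82 Ctla2a UMIs, and the richest cells of libraries 1, 2 and 4 held 12, 21 and 12. Ctla2b was thinner, with at most 3 UMIs in a cell. After every cell was thinned to 5000 UMIs, so that depth was equal, 0.988% (0.782 to 1.23) of library 3 cells kept a granzyme UMI and 0.671% (0.503 to 0.877) a Ctla2a UMI, against at most 0.0470% and 0.0536% in the other libraries.

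**Figure D2:**
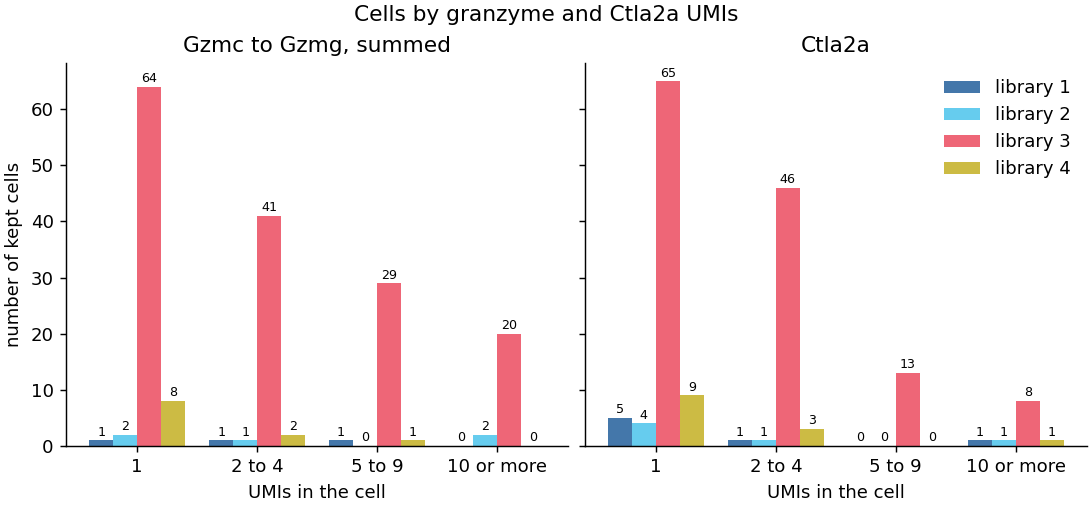
Number of kept cells (bars, from 0) with 1, 2 to 4, 5 to 9 or 10 or more UMIs of the 5 granzymes summed (left) or of Ctla2a (right), by library. Library 3 has 90 cells with at least 2 granzyme UMIs, and the other libraries have 2, 3 and 3.

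Gzmd was mostly detected in cells that also had Gzme. In library 3, 49 of the 60 cells with Gzmd also had Gzme, which was present in 1.79% of all cells there, while 49 of the 141 cells with Gzme (34.8%) had Gzmd. In libraries 1, 2 and 4, 2 of 2, 3 of 3 and 2 of 4 Gzmd cells had Gzme. Gzmd made up 21.8% (19.1 to 24.7) of the Gzmd and Gzme UMIs of library 3. That share was 16.1% (8.02 to 27.7) in cells with 1 granzyme UMI and 23.6% (20.0 to 27.5) in cells with 10 or more, and the intervals overlapped.

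Granzyme and Ctla2a also met in the same cells, although they lie on different chromosomes. In library 3, 73 of the 154 granzyme cells (47.4%) had Ctla2a, against 1.67% of all cells, and 73 of the 132 Ctla2a cells (55.3%) had a granzyme. In libraries 1, 2 and 4 the granzyme cells with Ctla2a were 2 of 3, 3 of 5 and 4 of 11. Ctla2b met Ctla2a in 24 of its 56 library 3 cells. Gzmm, a granzyme gene outside this cluster, served as a contrast: it lay between 0.666 and 0.839 CPM in the 4 libraries, and 3 of its 140 library 3 cells (2.14%) had one of the 5 granzymes, near the 1.95% of all cells.

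Amounts of granzyme and Ctla2a in the same cell were also compared. Over the 7893 library 3 cells thinned to equal depth, Pearson's r of log2(1 + UMIs) between the granzyme sum and Ctla2a was 0.25, a description over cells of 1 library. After that thinning 78 cells had a granzyme, 53 had Ctla2a and 17 had both, so this r does not separate amount from detection. Ctla2a and Ctla2b summed to 162 CPM (125 to 206) in library 3 cells with 10 or more granzyme UMIs. In cells with 2 to 9 granzyme UMIs they summed to 161 CPM (141 to 182). The cell richest in Ctla2a (82 UMIs) had 3 granzyme UMIs, and the richest granzyme cell (69 UMIs) had 18 Ctla2a UMIs.

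**Figure D3:**
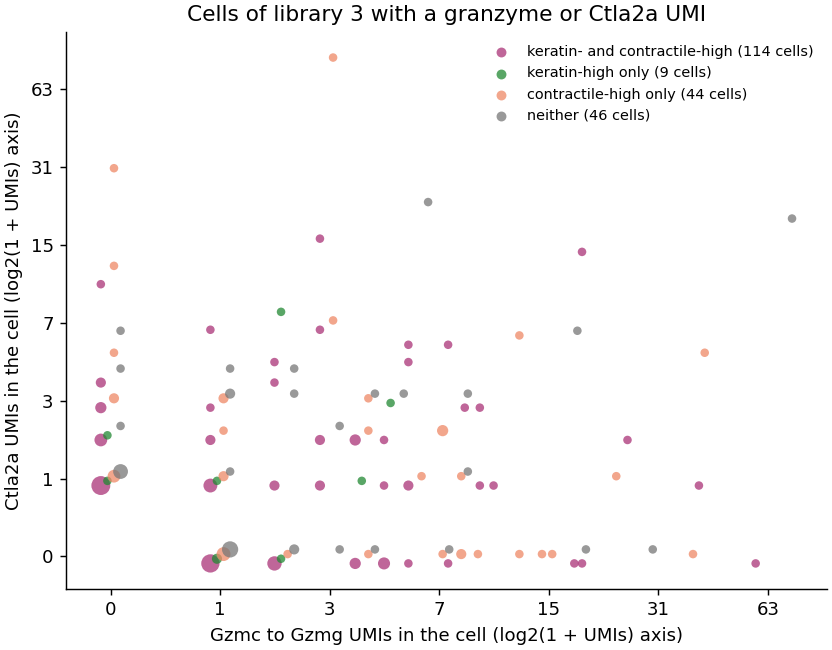
Granzyme UMIs (x) against Ctla2a UMIs (y) of the 213 library 3 cells with either, both on log2(1 + UMIs) axes; point area grows with the number of cells at the same position and colours give the keratin and contractile class, with a small offset between classes. Cells high in contractile genes (114 also keratin-high, 44 not) make up most points, and 9 cells are keratin-high only.

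The granzyme and Ctla2a cells overlapped the keratin and contractile cells. Cells were called keratin-high or contractile-high when they had at least 3 UMIs of Krt8 and Krt18, or of the contractile list, after thinning to 5000 UMIs. In library 3, 86 of 154 granzyme cells (55.8%) were keratin-high, as were 8.34% of all cells, and 113 (73.4%) were contractile-high, as were 9.03% of all cells. Of the 132 Ctla2a cells, 79 (59.8%) were keratin-high and 100 (75.8%) contractile-high. In library 4, 3 of 11 granzyme cells were keratin-high and 4 contractile-high, and 9 and 8 of 13 Ctla2a cells. Of all its cells, 4.30% and 7.76% were. In library 2 they were 1 and 2 of 5 granzyme cells and 1 and 4 of 6 Ctla2a cells, against 0.364% and 0.987% of all cells. In library 1 they were 2 and 2 of 3 granzyme cells and 5 and 5 of 7 Ctla2a cells, against 0.788% and 0.739%.

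The granzymes also differed between the 4 combinations of these classes. The granzyme sum was 49.96 CPM (44.0 to 56.5) in the 189 contractile-high cells of library 3 that were not keratin-high. It was 26.0 CPM (23.5 to 28.6) in the 524 cells high in both, 4.82 CPM (2.75 to 7.83) in the 134 cells that were keratin-high only, and 1.38 CPM (1.20 to 1.58) in the remaining 7046 cells. The contractile-only cells exceeded the keratin-only cells 10.4-fold (6.26 to 18.4) in granzymes. Single rich cells set much of these levels, and the richest granzyme cell of all (69 UMIs) was in none of the high classes. With the 2 richest cells of each class left out, the granzyme levels in the same order of classes were 34.6, 19.3, 2.13 and 0.728 CPM, and the contractile-only cells were 1.79-fold (1.48 to 2.17) above cells high in both. By cells, a granzyme was present in 18.0% (12.8 to 24.2) of contractile-only cells and 15.1% (12.1 to 18.4) of cells high in both, with overlapping intervals. The share of keratin-only cells was 5.22% (2.13 to 10.5).

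Ctla2a was at 35.8, 11.4, 4.82 and 0.647 CPM in the same order, but 2 contractile-only cells held 112 of that class's 182 UMIs. With the 2 richest cells of each class left out, contractile-only cells were at 13.9 CPM (10.8 to 17.6) and cells high in both at 9.39 CPM (7.93 to 11.05), a 1.48-fold difference (1.10 to 1.98). By cells rather than UMIs, Ctla2a was present in 14.3% (9.63 to 20.1) and 13.9% (11.1 to 17.2) of these classes and in 4.48% (1.66 to 9.49) of keratin-only cells. Ctla2b was at 2.82 CPM (2.05 to 3.79) in cells high in both and at 2.16 CPM (1.08 to 3.87) in contractile-only cells.

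The other libraries had few UMIs in these classes and differed from each other. The 62 contractile-only cells of library 2 had 13 granzyme UMIs, all in 1 cell, and 23 Ctla2a UMIs, 21 of them in 1 cell, its 22 cells high in both had 1 of each, and its 9 keratin-only cells had 0. In library 1 the UMIs were in the 48 cells high in both (10 and 17), with 0 in the 12 contractile-only and 16 keratin-only cells. The 361 contractile-only cells of library 4 had 1 granzyme and 0 Ctla2a UMIs, its 218 cells high in both had 8 and 11, and its 103 keratin-only cells had 0 and 12, all 12 in 1 cell.

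In library 3 the share of cells with a granzyme was larger at each step of the contractile scale. It was 0.389% of the 6427 cells with no contractile UMI after thinning, 2.12% at 1 to 2 UMIs, 7.05% at 3 to 9, 18.9% (14.2 to 24.4) at 10 to 29 and 28.5% (21.6 to 36.2) of the 158 cells with 30 or more, the last pair with overlapping intervals. With the granzyme counts thinned too, the shares were 0.171%, 1.46%, 3.85%, 9.05% and 13.9%. Ctla2a went from 0.311% to 31.01% of cells over the same steps. In libraries 1, 2 and 4 the middle steps held 0 to 3 granzyme cells each, and no such order could be read. On the keratin scale of library 3, granzymes were at 34.9 CPM (30.8 to 39.5) in cells with 3 to 9 keratin UMIs and at 12.8 CPM (9.57 to 16.8) in cells with 30 or more. By cells, the shares were 15.3% (11.2 to 20.3) at 3 to 9 UMIs, 14.3% (10.2 to 19.2) at 10 to 29 and 6.90% (3.36 to 12.3) at 30 or more.

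The cells richest in contractile genes carried granzymes in every library. Those with 30 or more contractile UMIs numbered 8, 5, 158 and 20 in libraries 1 to 4, and 2, 2, 45 and 3 of them had a granzyme UMI. Their granzyme levels were 63.05 CPM (30.2 to 116), 140 CPM (76.7 to 235), 58.9 CPM (51.6 to 67.0) and 16.1 CPM (6.96 to 31.8). Library 3 was thus not the highest within this class, and it held more cells of the class. Outside library 3 these levels rest on 2 or 3 granzyme cells each. In cells with no contractile UMI, by contrast, library 3 (1.30 CPM, 1.11 to 1.503) remained above the other libraries, which reached at most 0.0393 CPM.

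**Figure D4:**
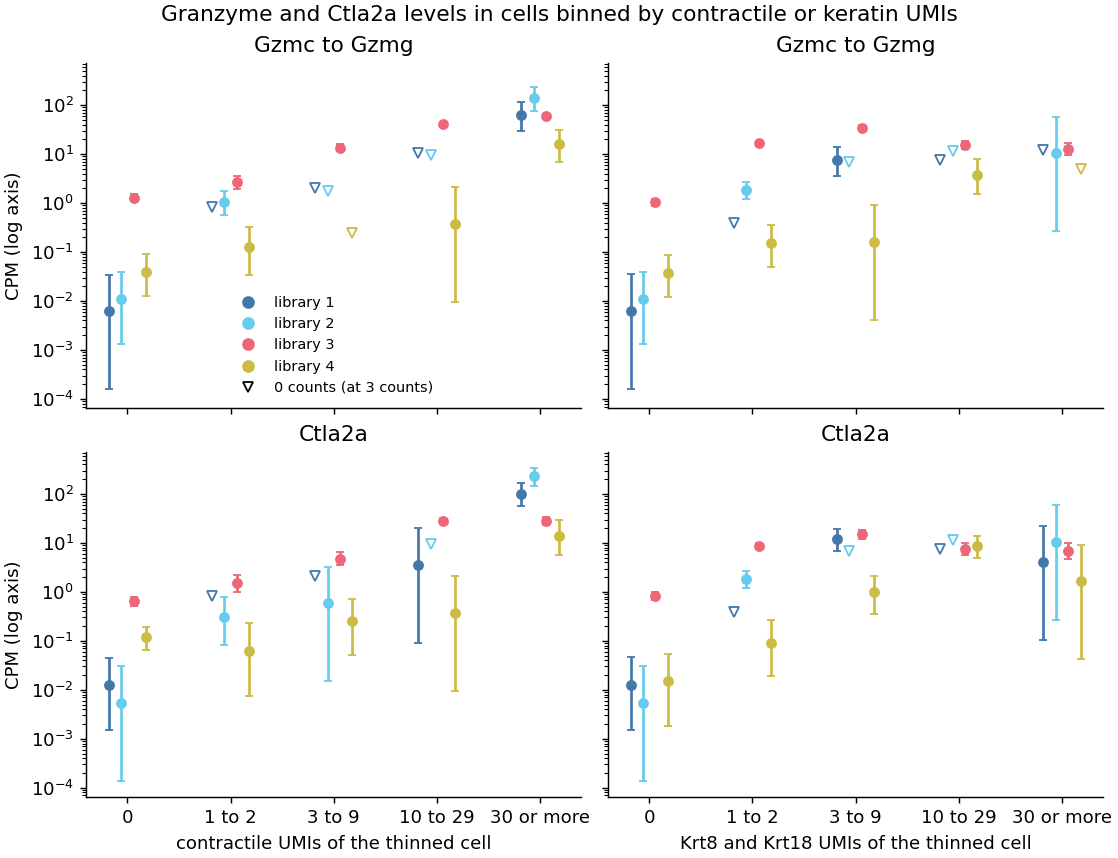
CPM (log axis) of the 5 granzymes summed (top) and of Ctla2a (bottom) in cells binned by contractile UMIs (left) or by Krt8 and Krt18 UMIs (right) after thinning to 5000 UMIs; points are libraries with exact 95% Poisson intervals and open triangles mark 0 counts, drawn at 3 counts. In library 3 granzymes climb to 58.9 CPM at 30 or more contractile UMIs, and on the keratin scale the highest level is 34.9 CPM, between 3 and 9 UMIs.

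Keratin-high cells exceeded cells with no keratin UMI in granzymes in library 3. The levels were 22.3 and 1.05 CPM, a 21.2-fold difference (17.5 to 25.9), and for Ctla2a 10.3 and 0.833 CPM (12.3-fold, 9.70 to 15.7). In library 4, 8 granzyme UMIs in 321 keratin-high cells stood against 5 in 5766 keratin-none cells (24.8-fold), but 6 of the 8 were in 1 cell, without which the fold was 6.21 (0.592 to 38.0). Library 1 had 10 UMIs, all in 2 cells, against 1, and library 2 had 1 against 2, which gives no fold. Over all genes with at least 200 counts in both classes together in every library, 141 of 10899 (1.29%) were at least 4-fold higher in keratin-high cells in all 4 libraries, and no member had the counts to be among those tested. In library 3 alone 719 of 11719 genes (6.14%) passed 4-fold, Gzme and Ctla2a among them. Both reached 200 counts only through the keratin-high cells (Gzme 334 and 111 UMIs in keratin-high and keratin-none cells, Ctla2a 194 and 112) and the members were selected on this overlap, so nothing is read from their passing.

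Granzyme UMIs were also present in a few cells without keratin or contractile UMIs. Of 5796 library 3 cells with no keratin and no contractile UMI after thinning, 13 (0.224%, 0.119 to 0.383) had a granzyme, at a median depth of 18833 UMIs. Of these 13 cells, 3 had 2 or more granzyme UMIs. The share of cells with a granzyme was 15.8% (13.2 to 18.7) among contractile-high cells, at a median of 25659 UMIs.

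What else the granzyme cells expressed was read from the 90 library 3 cells with at least 2 granzyme UMIs (granzyme-high). They were set against the 572 keratin-high cells without granzyme and against the 7167 other cells with neither. Their median depth was 18605 UMIs, against 26092 and 19132 UMIs, and 4 of the 90 had over 2 times the library's median UMIs, as did 145 of the 572 and 374 of the 7167. Without these 145 cells the keratin-high cells without granzyme were at 4076 CPM for the contractile list, 836 CPM for p53 targets and 78.2 CPM for the fibroblast list, against the values for all 572 given with each list. The comparison is between cells of 1 library, so it has no replicate test, and genes are counted when they differ at least 4-fold. Over the 11950 genes with at least 200 counts in library 3, 9.26% were at least 4-fold higher in granzyme-high than in other cells and 2.94% at least 4-fold lower. Against keratin-high cells without granzyme the shares were 1.91% and 1.11%.

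Granzyme-high cells were rich in contractile and collagen genes and poor in naive pluripotency genes. The contractile list summed to 5053 CPM (4953 to 5155) in granzyme-high cells, 3405 CPM in keratin-high cells without granzyme and 65.0 CPM in other cells. All 5 testable members passed 4-fold over other cells, with a median of 52.9-fold against 1.01-fold for all genes. The granzymes were selected on their overlap with contractile genes. Other cells also exclude every keratin-high cell, and 524 of the 713 contractile-high cells of library 3 were keratin-high. This fold is therefore partly set by selection and by how the classes were made. Acta2, the smooth muscle actin, was at 1771, 791 and 10.1 CPM, and Tagln, an actin-binding protein of smooth muscle, at 3025, 2122 and 39.9 CPM. Acta1, the skeletal muscle actin, and Cnn1, a calponin of smooth muscle, were lower than in keratin-high cells without granzyme, at 96.4 against 319 CPM (0.302-fold, 0.259 to 0.350) and 46.6 against 89.5 CPM (0.521-fold, 0.416 to 0.645). Against keratin-high cells none of the 5 passed 4-fold.

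Collagens were among the 228 of 11950 genes at least 4-fold higher than in keratin-high cells without granzyme. Col1a1, Col1a2 and Col3a1, which encode chains of the fibrillar collagens of connective tissue, were 8.83-fold (7.39 to 10.6), 7.59-fold (6.52 to 8.85) and 7.33-fold (5.22 to 10.3) higher in granzyme-high than in keratin-high cells without granzyme. All 3 passed 4-fold among the 4 testable genes of the fibroblast and smooth muscle list. Col3a1 had 223 counts over all library 3 cells, close to the minimum of 200 counts for a testable gene. That total includes the granzyme-high cells, so Col3a1 may be testable only through them, and nothing is read from its passing. Col1a1 and Col1a2 had 673 and 881 counts. The list summed to 352 CPM in granzyme-high and 60.1 CPM in keratin-high cells without granzyme. Lum and Dcn, further fibroblast genes, had 0 UMIs in granzyme-high cells. Read the other way, 60 of the 156 library 3 cells with a collagen UMI after thinning (38.5%, 30.8 to 46.6) had a granzyme and 54 (34.6%) had Ctla2a. Collagen cells were scarcer in libraries 1, 2 and 4 (13, 17 and 27 cells), and 1, 2 and 4 of them had a granzyme.

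Keratin levels between these classes are partly set by how the classes were made, since every cell of the comparison class had to be keratin-high while 51 of the 90 granzyme-high cells were. Krt8 was at 681 CPM in granzyme-high cells and at 2110 CPM in keratin-high cells without granzyme, and Krt18 at 743 and 2032 CPM. The list of 4 keratins, with Krt7 and Krt19, had a median of 0.337-fold in that comparison. In the 51 cells that were both granzyme-high and keratin-high, Krt8 and Krt18 summed to 2317 CPM, against 4142 CPM in keratin-high cells without granzyme. In other cells Krt8 was at 15.2 CPM, a difference the classes themselves fix.

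Naive pluripotency genes were lower than in other cells. Of the 10 naive genes, 7 were at least 4-fold lower than in other cells and 0 higher, with a median of 0.219-fold. Klf2 was at 85.4 CPM against 453 CPM and Zfp42, a marker of the naive state, at 92.7 CPM against 451 CPM. Pou5f1, the central pluripotency factor, was at 169 CPM against 708 CPM, and had a UMI in 45 of 90 granzyme-high cells and 99.7% of other cells. Against keratin-high cells without granzyme, 0 of the 10 naive genes passed 4-fold either way, with a median of 1.06-fold. The sum of the naive genes was 0.812-fold (0.751 to 0.877). The 5 mESC markers, Pou5f1 among them, had a median of 0.588-fold in that comparison, with 0 past 4-fold, and their sum was 0.785-fold (0.755 to 0.816). Much of these sums came from the 4 granzyme-high cells with over 2 times the library's median UMIs. Without them the mESC markers of granzyme-high cells were at 1063 CPM in place of 1455 CPM, and the naive genes at 284 in place of 377 CPM. Keratin-high cells without granzyme were at 1853 and 464 CPM with their 145 high-UMI cells kept. These 2 levels were not computed without those cells, so the lower values have no matched comparison. Of 10 formative genes, which mark the state after the naive one, Sox11 (346 against 23.9 CPM) and Nes (110 against 23.0 CPM) were at least 4-fold higher than in other cells and Zic2 at least 4-fold lower, with a median of 0.791-fold. Against keratin-high cells without granzyme, 0 formative genes were at least 4-fold higher and Pou3f1 was at least 4-fold lower, with a median of 0.694-fold.

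Of 6 p53 targets, 5 passed 4-fold over other cells, with a median of 6.28-fold. The list summed to 1858 CPM in granzyme-high cells, 680 CPM in keratin-high cells without granzyme and 230 CPM in other cells. Cdkn1a, which encodes the cell cycle inhibitor p21, was at 725 CPM in granzyme-high cells, 149 CPM in keratin-high cells without granzyme and 28.4 CPM in other cells, and it was the only p53 target of the list past 4-fold (4.86, 4.55 to 5.19) in the former comparison. Mdm2, the ligase that limits p53, was at 360, 95.8 and 38.1 CPM. YAP targets gave 4 of 5 past 4-fold over other cells (median 17.4-fold), with Ccn1 at 249 against 7.90 CPM, and 1 of 5 against keratin-high cells, the receptor kinase gene Axl at 50.8 against 10.6 CPM.

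**Figure D5:**
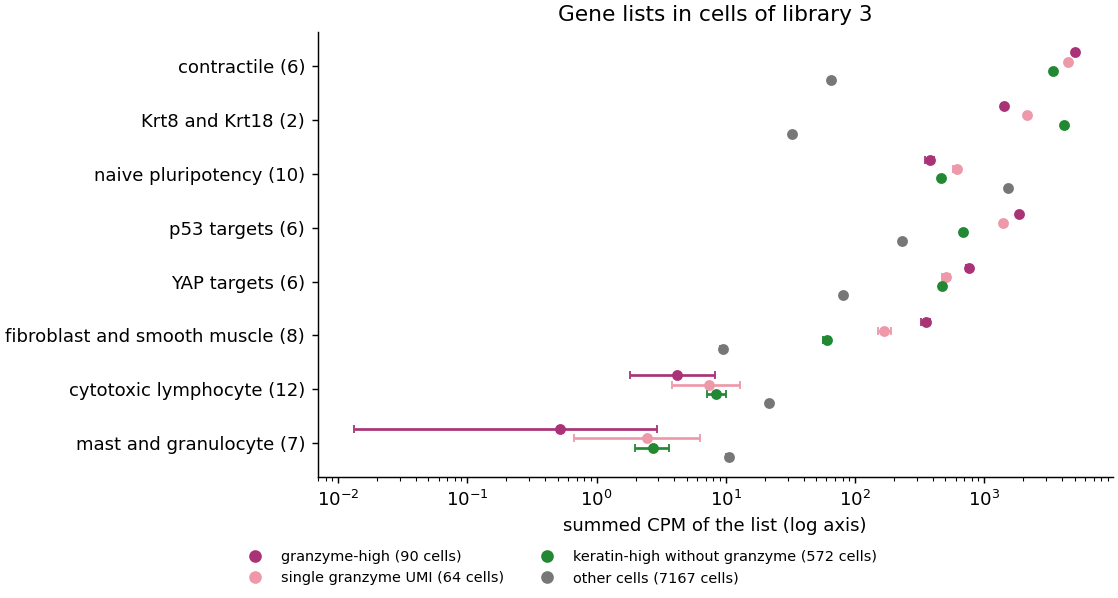
Summed CPM (log axis, exact 95% Poisson intervals) of 8 gene lists, with the number of genes in brackets, in 4 classes of library 3 cells. Granzyme-high cells have the highest contractile (5053 CPM), p53 target (1858 CPM) and fibroblast (352 CPM) sums and low lymphocyte (4.19 CPM) and mast cell (0.524 CPM) sums.

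Lists for other cell types were checked in the same cells. Of 12 markers of cytotoxic T and natural killer cells, 11 were at 0 in granzyme-high cells, among them Ptprc, Cd3e, Ncr1 and Klrb1c, and the list summed to 4.19 CPM (1.81 to 8.26), all of it Lck, against 21.5 CPM in other cells. Of 7 mast cell and granulocyte markers, 6 were at 0, and of 5 genes of the 2-cell stage all 5 were. Over the 7893 cells of library 3, most of the lymphocyte list was Lck (15.9 CPM) and most of the mast cell list Kit (9.61 CPM). Ptprc had 5 UMIs there, so the sums of other cells are not a lymphocyte or mast cell signal. Of 10 trophoblast markers 4 were at 0, namely Elf5, Tpbpa, Prl3d1 and Prl2c2. The list summed to 40.9 CPM in both granzyme-high and other cells and to 93.2 CPM in keratin-high cells without granzyme. Among its 4 testable genes, Gata3 and Krt7 were at least 4-fold higher than in other cells and Tfap2c at least 4-fold lower. Their median was 5.79-fold. Tfap2c, at 32.5 CPM, was most of the list over all library 3 cells, so the equal sums hide differences in both directions. Against keratin-high cells without granzyme 0 of the 4 passed 4-fold, with a median of 0.308-fold. Of the decidual stroma list, Wnt4 and Bmp2 were the 2 testable genes, and both passed 4-fold over other cells (68.1 against 2.61 CPM and 17.3 against 0.197 CPM), while 0 of the 2 did against keratin-high cells. Of the primitive endoderm list only Dab2 was testable, at 67.6 CPM against 10.5 and 1.43 CPM. Gata6 of that list was at 9.95 CPM, against 0.551 CPM over all cells of library 3, and Gata4 and Pdgfra had 1 and 2 UMIs. The primitive endoderm list summed to 80.2 CPM in granzyme-high cells, 16.3 CPM in keratin-high cells without granzyme and 1.99 CPM in other cells. The endothelium list was at 17.3, 8.75 and 20.1 CPM in the same order. Most of that list over all library 3 cells was Pecam1 (17.2 CPM), its only testable gene. Pecam1 was at least 4-fold lower in granzyme-high than in other cells (0.138-fold). The sums therefore do not describe the other endothelium genes.

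Of 13 other granzymes and neighbours, 10 lie on chromosome 14, and 6 of these had 0 UMIs in granzyme-high cells, including Gzmb. Gzma and Gzmk, which lie on chromosome 13, were at 0 as well, and Gzmm had 1 UMI. Mcpt8, a mast cell protease gene of the same cluster on the far side of Ctsg, had 28 UMIs (14.7 CPM) in granzyme-high cells, 0 in keratin-high cells without granzyme and 1 in the 7167 other cells. Of the 18 library 3 cells with Mcpt8, 17 had a granzyme, as did the single such cell of library 1 and all 3 of library 4. Gzmn, inside the cluster, had 7 UMIs in granzyme-high cells and 0 in other cells, too few for more than the count.

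Partners of granzymes in killer cells were only partly present. Prf1 and Srgn had 0 UMIs in granzyme-high cells, as had Nkg7 and Cst7. Ctsc, which activates granzymes, was at 41.4 CPM against 6.23 CPM in other cells (6.64-fold, 5.21 to 8.36). Serpinb9 and Serpinb9b, intracellular serpins of the family that inhibits granzymes, were 32.6-fold (19.6 to 52.8) and 20.0-fold (15.6 to 25.2) higher than in other cells. These 3 were the only ones of 9 testable partners past 4-fold, and 0 of 9 passed against keratin-high cells without granzyme.

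Cathepsin genes were counted because CTLA-2α inhibits cathepsin L. Ctsl itself was at 473 CPM in granzyme-high, 312 CPM in keratin-high and 143 CPM in other cells, below 4-fold in both comparisons. Ctsb and Ctsd, lysosomal proteases, passed 4-fold over other cells (7.95-fold, 7.20 to 8.77, and 8.05-fold, 7.59 to 8.53), the 2 of 4 testable cathepsins that did. The placental cathepsins Ctsj and Ctsq had 0 UMIs.

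Libraries 1, 2 and 4 held 8 granzyme-high cells, with contractile genes at 7125 CPM against 78.2 CPM in their cells without granzyme. The fibroblast list was at 573 against 9.67 CPM, p53 targets at 1476 against 260 CPM and naive genes at 284 against 1478 CPM. Lymphocyte markers were at 0. The contractile level came from 4 of the 8 cells. These 4, all contractile-high, were at 16601 CPM for contractile genes, while the other 4 were in neither high class and at 164 CPM (98.9 to 257). In library 3, 17 of the 90 granzyme-high cells were in neither class. In libraries 1, 2 and 4 these sets of 4 cells were at 1813 and 1228 CPM for p53 targets, 706 and 476 CPM for the fibroblast list and 153 and 381 CPM for naive genes. A single cell in neither class held 72655 UMIs and was at 317, 151 and 482 CPM for these lists. The others of its set were at 2141 to 3345, 177 to 2078 and 189 to 236 CPM, so the levels of that set rest largely on 1 cell.

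The profile was also read by the amount of granzyme and by Ctla2a. Library 3 cells with 10 or more granzyme UMIs had 3847 CPM of contractile genes and 2332 CPM of p53 targets, and those with 2 to 9 had 5381 and 1729 CPM. Granzyme-high cells with Ctla2a (52 cells) had 5521 CPM of contractile genes and 411 CPM of the fibroblast list, and those without (38 cells) 4466 and 278 CPM, with p53 targets at 2064 and 1600 CPM. In the same order mESC markers were at 1104 and 1896 CPM and naive genes at 292 and 485 CPM. Each of these 2 sets included 2 cells with over 2 times the library's median UMIs. A further 20 cells had at least 2 Ctla2a UMIs and no granzyme, with 8434 CPM of contractile genes, 3267 CPM of Krt8 and Krt18, 176 CPM of the fibroblast list and 2078 CPM of p53 targets, the last against 1858 CPM in granzyme-high cells. These 20 cells were at 688 CPM for mESC markers and 179 CPM for naive genes.

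The genes most like the granzymes across cells included Ecm1, Timp2 and Col11a1, which encode proteins of the extracellular matrix. Over the 7893 library 3 cells, thinned to 5000 UMIs, the highest Pearson's r of log2(1 + UMIs) with the granzyme sum among 9092 genes were those of Ecm1 (0.42), Timp2 (0.39), Gsn (0.39), Pmp22 (0.39), Col11a1 (0.37), Ccn4 (0.37), Cdkn2a (0.36), Cryab (0.36), Plod2 (0.35) and Wls (0.35). The 99th percentile of all genes was 0.19. Acta2 and Tagln reached 0.20 and 0.22, and Krt8 and Krt18 0.10 and 0.11. The lowest were Hmgb2 (-0.28), H2afz (-0.25), Ptma (-0.24), Npm1 (-0.24) and Hsp90aa1 (-0.23), of which Hmgb2 encodes a chromatin protein abundant in dividing cells. These are descriptions over cells of 1 library, in which 78 cells kept a granzyme UMI.

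For Ctla2a the 10 highest were Bmp1 (0.35), Igfbp7 (0.35), Gng11 (0.35), Cdkn2a (0.34), Gsn (0.34), Thbs1 (0.32), Emp3 (0.31), Cryab (0.30), Ecm1 (0.30) and Cdkn1a (0.29). Cdkn2a, Gsn, Cryab and Ecm1 stood in both sets of 10. The genes whose levels follow were picked by this likeness over the same cells. High levels in granzyme-high cells follow from that choice, so they are a description only. Ecm1, a matrix protein gene, was at 203 CPM in granzyme-high cells, 21.9 CPM in keratin-high cells without granzyme and 2.22 CPM in other cells. Cdkn2a, which encodes the inhibitors p16 and p19Arf, was at 718, 148 and 13.2 CPM and had a UMI in all 90 granzyme-high cells and in 19.6% of other cells. Gng11 and Igfbp7 were 17.6-fold (14.8 to 20.9) and 13.7-fold (11.6 to 16.2) above keratin-high cells without granzyme.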

How the data were processed

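Per the study's methods, the authors mapped 4 libraries (10x 3′ v3 chemistry) to mm10 with Cell Ranger 6.1.2 and joined them with its aggregation step, which subsamples reads to like depth. The deposited values are UMI counts per gene and barcode, not normalized. The study's stated filter was applied per library: barcodes less than 1 SD below the mean in counts and genes were kept, with under 10% mitochondrial UMIs. No doublets were removed; cells over 2 times their library's median UMIs were left out as an alternative. Members and lists were chosen with earlier results of these data known. Genes named are the 7 members, list genes, and the genes most and least like the granzyme sum or Ctla2a by Pearson's r. Likeness needed 100 cells with such a UMI in the deposited counts, which library 3 alone had. Classes used cells thinned to 5000 UMIs, and a gene needed 200 counts. The comparison of granzyme-high cells, the UMI steps, the fold in library 3 alone and the levels without the richest or high-UMI cells were chosen after seeing the data. Folds have exact conditional intervals at 95%. There was no test, since library numbers tie to no sample. The code was tested on simulated data. Python 3.11.15, NumPy 2.4.6, SciPy 1.17.1, pandas 2.3.3 and Biopython 1.88 were used.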

Additional observations from a re-analysis of the deposited data

Results flagged for a closer look

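Barcodes that failed the cell filter also carried granzyme and Ctla2a UMIs, which is a signal in data outside the comparisons. In the 1804 removed barcodes of library 3 the granzyme sum was 1.71 CPM (0.853 to 3.06), from 11 UMIs in 9 barcodes. The removed barcodes of libraries 1, 2 and 4 (1417, 3222 and 2710) had 0 granzyme UMIs. Ctla2a was at 0.621 CPM (0.169 to 1.59) in the removed barcodes of library 3, from 4 UMIs in 3 barcodes, and had 0, 2 and 2 UMIs in those of libraries 1, 2 and 4, whose intervals overlap it.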

How the results depend on the processing

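No paired analysis was possible because the library numbers tie to no labelled replicate. The fold between the highest and lowest library ranged from 2.27 to 77.4 for the granzyme sum and from 1.41 to 24.0 for Ctla2a when each library was left out, and the lowest values are those without library 3. Without library 1 the granzyme fold was 49.4, and without the 10 richest granzyme cells, an alternative chosen after seeing the data, it was 44.8. The granzyme fold of keratin-high over keratin-none cells in library 3 was 17.1 with keratin-high set from 5 UMIs, 39.5 with thinning to 10000 UMIs and 32.3 without high-UMI cells. In library 4 the fold of 24.8, from 8 and 5 UMIs, was 14.9 with keratin-high from 2 UMIs and 37.4 from 5 UMIs, and 6.21 without its richest granzyme cell, chosen after seeing the data. Library 2 gave no such fold, since both classes had at most 3 counts. The 141 of 10899 genes at least 4-fold higher in every library became 264 of 13202 with at least 50 counts, 493 of 12239 with at least 1 UMI in each class of every library in place of the minimum (Ctla2a, the only member tested, among them) and 84 with keratin-high from 2 UMIs, and ranged from 144 to 241 with a library left out, 241 being without library 4. In library 2 Ctla2a had 1 UMI in keratin-high and 1 in keratin-none cells. The members were selected on this overlap, so nothing is read from Ctla2a passing. The share of library 3 cells with a granzyme was 1.29% at 10000 UMIs and 1.95% without thinning, and with Ctla2a 1.17% and 1.67%. In library 4 the unthinned shares were 0.147% and 0.174%, and the Ctla2a share at 10000 UMIs 0.139%. Depth limits Gzmc, Gzmf and Gzmg, which stayed at or under 3 counts in each library.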
